A study of Homo sapiens with 3 samples.

Results

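The abundant long noncoding RNAs of these neurons were taken as the genes of type lncRNA with at least 20 TPM in each of the 3 libraries. Genes named SNHG, and GAS5, ZFAS1, DANCR, MEG3, MEG8, H19 and KCNQ1OT1, were left out. The rule kept 246 of 35068 lncRNA genes, in a table of 78932 genes, and 18 genes that reached the minimum were left out by name. TPM is the share of transcripts in a library, corrected for transcript length and scaled to a fixed total, so it can be compared between genes. The members were chosen by their measured TPM, so their levels are given as a description, without a test. The samples were 3 replicates of 1 group: untreated iCell GlutaNeurons (iGluta) of genotype WT, a commercial line of human glutamatergic neurons made from induced pluripotent stem cells, after 3 weeks of culture. Polyadenylated RNA had been selected before sequencing. The labels do not say that the replicates came from separate cultures, so the SDs given here may reflect technical spread alone.

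Long noncoding RNAs are transcribed by RNA polymerase II, and most are capped, spliced and polyadenylated like mRNAs, without a long open reading frame. Some act as RNA, by holding proteins (NORAD, MIAT), by pairing with a miRNA (OIP5-AS1) or by affecting a neighbouring gene (CHASERR). Others carry the hairpin of a miRNA or a small nucleolar RNA in their exons or introns. Many lie antisense to a coding gene or start from the same promoter region in the other direction, and for most of them no function is known. Several neural members, such as RMST and the hosts of miR-124, are switched on during neuronal differentiation.

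The first sequences to be shown are a miRNA and a member that carries its site, since both ends of the pair were found among the members. MIR7-3HG, the host gene of a miR-7 hairpin, had 83.21, 75.75 and 66.22 TPM in replicates 1, 2 and 3. OIP5-AS1, known as Cyrano, pairs with miR-7 and promotes its decay, and had 31.43, 35.65 and 24.83 TPM. The mature miRNA itself was not measured by these libraries. In the lines below, capitals mark the miR-7 seed (bases 2 to 8, RefSeq, GRCh38.p14) and its match in the transcript OIP5-AS1-201 of GENCODE 29, at bases 2865 to 2894 of 8829.
hsa-miR-7-5p: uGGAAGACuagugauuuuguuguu
OIP5-AS1 site: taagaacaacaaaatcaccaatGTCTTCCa

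In the best alignment, 23 of the 24 miRNA bases paired with this site, and 2 site bases next to the seed match had no partner. OIP5-AS1-201 held 3 matches to the seed. A seed match (GTCTTCC, sense strand) was present in 17.9% of 5143 lncRNA transcripts of at least 1000 bases, the longest of each gene in GENCODE 29. OIP5-AS1 was the 1 transcript among them with an alignment score as high as that of this site. LINC00632, whose locus gives the circular RNA CDR1-AS that also binds miR-7, stayed outside the rule with 16.82, 24.30 and 14.34 TPM.

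NORAD and MIAT are shown for the repeated motifs through which each is known to hold a protein. NORAD, a cytoplasmic RNA that binds Pumilio proteins, held 15 matches to the Pumilio motif TGTANATA in 5339 bases, or 2.81 per kb. A match was present in 18.8% of the 5143 transcripts, and 4 of them, NORAD included, held at least as many. MIAT, a nuclear RNA of neurons that binds the splicing factor SF1, held 7 matches to TACTAAC in 10143 bases, or 0.690 per kb. Such a match was present in 6.12% of the transcripts, and 2, MIAT included, held at least as many. Per kb, 3 transcripts held at least as many as NORAD and 38 at least as many as MIAT, themselves included. Only the sense strand was searched, and a match is a description of the letters. The 120-base windows with most matches are printed with the motifs in capitals, from bases 1129 to 1248 of NORAD-201 and 5774 to 5893 of MIAT-218 (GENCODE 29).
NORAD: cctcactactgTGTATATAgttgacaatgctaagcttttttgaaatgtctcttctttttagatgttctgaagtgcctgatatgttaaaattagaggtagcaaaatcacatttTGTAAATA
MIAT: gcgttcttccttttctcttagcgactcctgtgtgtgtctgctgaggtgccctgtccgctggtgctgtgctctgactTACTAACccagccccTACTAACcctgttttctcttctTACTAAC

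NORAD (chr20:36045618-36050960, GRCh38.p14) had 226.09, 293.38 and 271.98 TPM in replicates 1, 2 and 3, with 25675, 45417 and 26548 estimated counts. Its mean of 264 ± 34.4 TPM (SD, n = 3) was higher than that of PUM2, a Pumilio gene, at 62.9 ± 11.6 TPM in the same libraries. MIAT (chr22:26646429-26676478) had 55.61, 83.41 and 69.35 TPM, with replicate 1 lowest and replicate 2 highest. MALAT1, a nuclear-speckle RNA whose mature end has no ordinary poly(A) tail, had 81.24, 82.58 and 84.03 TPM. Its CV (SD divided by mean) was 1.69%, against a median of 11.5% over all members. Poly(A) selection disfavours such ends, so the level of MALAT1 holds for these libraries only.

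The members together made up a small and steady share of the transcripts. They held 1.66, 1.63 and 1.58% of all TPM in replicates 1, 2 and 3, or 1.62 ± 0.0388% (SD, n = 3). On estimated counts, which are not corrected for length, the share was 1.19, 1.20 and 1.07%. They carried 43.7, 41.9 and 44.7% of the TPM of all lncRNA genes. Their mean levels ran from 20.2 to 1270 TPM with a median of 37.1 TPM. Of the 246, 76 averaged at least 50 TPM, 19 at least 100 TPM and 11 at least 200 TPM, and the 6 highest held 26% of the members' TPM. The libraries had 41079348, 60092991 and 34732725 estimated counts in all, and the 37 mitochondrial genes took 4.25, 4.01 and 10.6% of TPM.

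After the exclusions by name, the top of the list was not made of well-known lncRNAs. ENSG00000289901 was first with 1043.46, 940.59 and 1825.05 TPM, but this rested on 1161, 1341 and 1512 estimated counts, since its effective length is short. By CPM (estimated counts scaled by the library total) it ranked 100 of the 246. ENSG00000310376 was second with 905.07, 753.52 and 576.27 TPM, on 15141, 16962 and 8151 counts that were all whole. Neither gene has a position or a symbol in the references used here. The third, ENSG00000269968, had 670.62, 500.36 and 490.89 TPM. All 422 of its exon bases lie inside exons of GAPDH on the opposite strand (chr12:6537794-6538370, GENCODE 29 on GRCh38), and GAPDH, the glycolytic enzyme, had 2881.05, 2629.90 and 2486.88 TPM.

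The next 3 members, ENSG00000280614, ENSG00000280800 and ENSG00000281181, had identical values of 670.12, 481.92 and 494.04 TPM. Each is a gene of 923 bases on chromosome 21 that lies inside 1 of the 18S ribosomal RNA genes RNA18SN3, RNA18SN2 and RNA18SN1, on the opposite strand. The copies cannot be told apart by reads, and the counting divided them evenly. The libraries were strand-specific, but the sources used here do not give the strand setting of the counting. Whether these reads came from the listed strand or from ribosomal RNA therefore cannot be told apart, and the same holds for ENSG00000269968 and GAPDH. In replicate 1 ENSG00000269968 and GAPDH had 1608.56 and 69360.44 counts, fractions that add up to a whole count. The counting thus divided reads between opposite strands for that pair, and the same was seen in other pairs given below. Without the 3 members inside 18S genes the share of TPM was 1.46% in place of 1.62%, a comparison chosen after the values were seen.

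**Figure D1:**
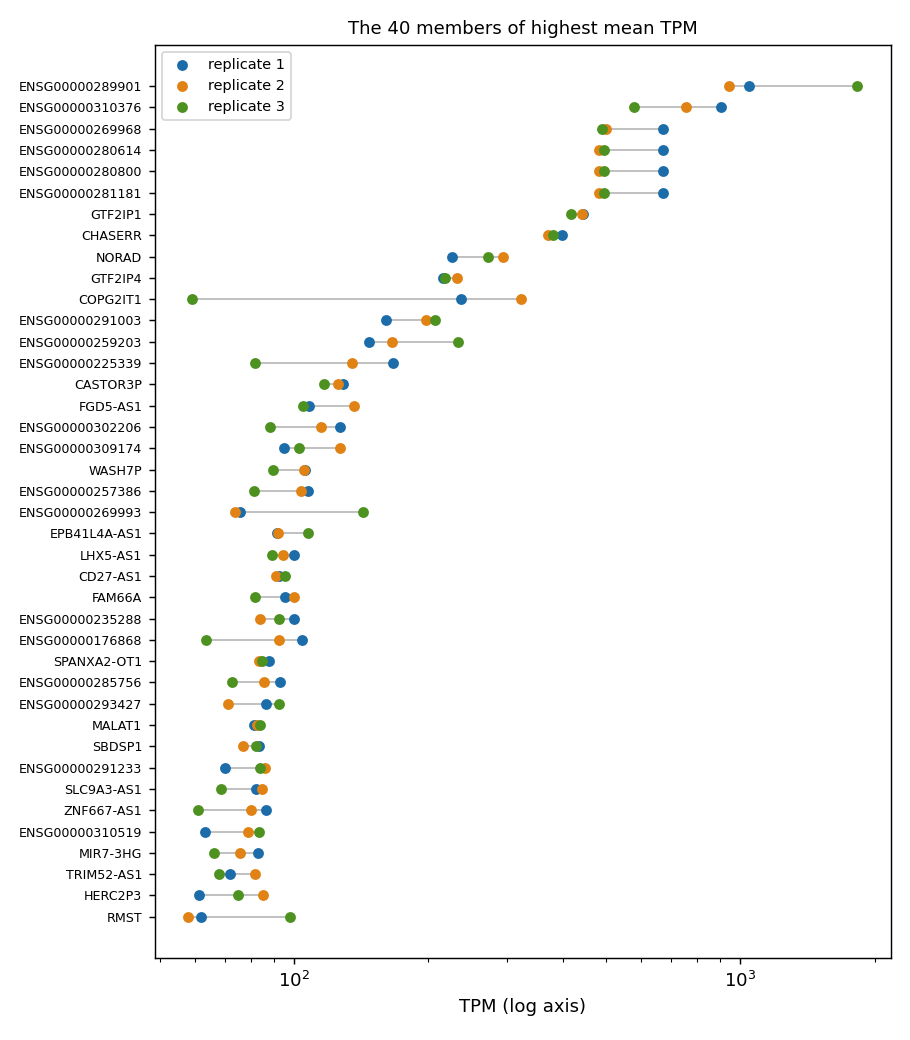
TPM (log axis) of the 40 members of highest mean TPM, 1 row per gene, with 1 point per library and a line over the range. ENSG00000289901 leads and is highest in replicate 3 at 1825.05 TPM, while COPG2IT1 has the widest range on the log axis, with 59.10 TPM in replicate 3.

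Below these, the highest members with a symbol were GTF2IP1, CHASERR, NORAD, GTF2IP4 and COPG2IT1. CHASERR lies upstream of CHD2, which encodes a chromatin remodeller, and in mice loss of Chaserr raises CHD2 protein and RNA. It had 397.94, 370.33 and 380.87 TPM, a mean of 383 ± 13.9 TPM, and its CV was 3.64%. CHD2 had 46.75, 57.18 and 46.73 TPM, below CHASERR in every library. COPG2IT1, an imprinted RNA named for an intron of COPG2, had 236.81, 322.37 and 59.10 TPM. It was first of all members by CPM, with 40264, 74322 and 8636 counts. COPG2 had 37.75, 40.14 and 33.07 TPM, and the neighbouring imprinted gene MEST had 83.55, 98.97 and 62.17 TPM. Replicate 3 was thus far below the others for COPG2IT1, at 0.211 of their mean, against 0.849 for COPG2 and 0.681 for MEST.

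FGD5-AS1 had 108.03, 136.58 and 104.59 TPM. ENSG00000225339, which shares 85.6% of its exon bases with NUDT3 on the opposite strand, had 167.03, 135.13 and 81.73 TPM. ENSG00000259203 (chr15:52801614-52804942) had 147.02, 165.78 and 233.55 TPM. Among the remaining members of the top 20, ENSG00000302206, ENSG00000309174 and ENSG00000257386 have no symbol and lay between 81.46 and 126.81 TPM over the libraries. ENSG00000257386 lies wholly inside ATXN7L3B exons on the opposite strand.

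TPM and counts ordered the members differently. Of the 50 highest by TPM, 30 were also among the 50 highest by CPM. The members highest by CPM were COPG2IT1 (822 CPM), NORAD (715 CPM), GTF2IP1 (386 CPM) and GTF2IP4 (330 CPM). MIAT was 43rd by TPM and 6th by CPM. Of the 246, 86 had a mean CPM under 20. The ratio of counts to TPM had a median of 0.605 relative to coding genes, so the members were on the whole counted over shorter effective lengths. Only 4 had under 100 counts in some library, and the most extreme was ENSG00000274630, which had 54.81, 85.51 and 62.54 TPM on 12.35, 24.00 and 9.13 counts. Its 156 exon bases all lie inside ACLY exons on the opposite strand, and its level is uncertain at such counts.

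**Figure D2:**
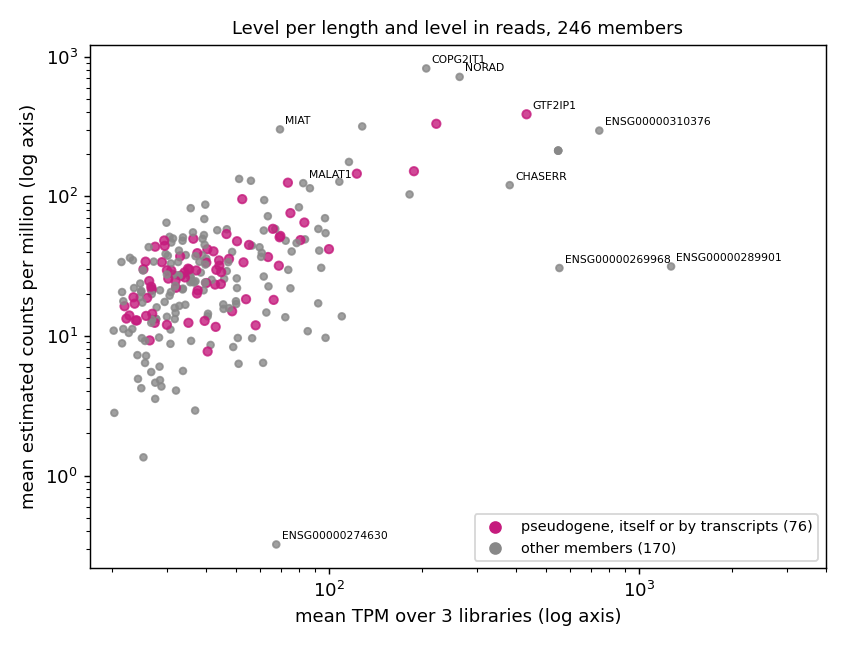
Mean TPM (x, log axis) and mean CPM (y, log axis) of the 246 members over 3 libraries, 1 point per gene. Points in magenta are the 76 members that a reference lists as a pseudogene or whose transcripts it placed in one. ENSG00000289901 is rightmost at 1270 TPM but only 31.4 CPM, COPG2IT1 is highest on the y axis at 822 CPM, and ENSG00000274630 is lowest at 0.321 CPM.

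The members with a known role were read from lists of lncRNAs. Of 17 nuclear and scaffold lncRNAs, 6 were members: MALAT1, MIAT, NORAD, OIP5-AS1, EPB41L4A-AS1 and EBLN3P. EPB41L4A-AS1, which carries the small nucleolar RNA SNORA13, had 91.66, 92.17 and 107.62 TPM. Of the 147 members found in GENCODE 29 by gene ID, it was the 1 that held a named small nucleolar RNA on its own strand. The others were not searched. The rule had left out the small nucleolar RNA host genes named SNHG, so this count was partly set by the rule. EBLN3P, a copy of a bornavirus gene, had 25.27, 35.18 and 27.65 TPM. NEAT1, the RNA at the core of paraspeckles, was far below the minimum with 4.99, 7.76 and 12.38 TPM. TUG1 had 104.77, 130.21 and 93.08 TPM but is typed as protein-coding in the table, so the rule could not take it.

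Of 31 neural lncRNAs, 27 were in the table by name and 5 were members. MIR124-1HG and MIR124-2HG are hosts of the neuronal miR-124. MIR124-1HG had 45.67, 44.34 and 40.75 TPM, and MIR124-2HG had 54.33, 76.66 and 70.46 TPM. RMST, which binds SOX2 and is needed for neurogenesis in cell models, had 61.76, 58.01 and 97.75 TPM, so replicate 3 stood apart. LINC01551 had 24.11, 30.48 and 25.96 TPM. DGCR5, a transcript of the DiGeorge region of chromosome 22, had 30.25, 32.75 and 23.60 TPM. HAR1A, from a human accelerated region, narrowly missed the rule with 20.45, 21.48 and 17.27 TPM. None of 10 lncRNAs of pluripotent cells and other lineages was a member or reached 1 TPM in each library. Of the markers of pluripotent stem cells, ESRG had 0 counts in each library, and LINC-ROR had 0, 1 and 4 counts in replicates 1, 2 and 3. On the same list, LNCPRESS1 had 1, 5 and 1 counts. MIR302CHG was higher, with 1.06, 1.06 and 0.46 TPM on 23.62, 31.97 and 9.34 counts. A count of 0 allows up to 3 counts, or 0.0730, 0.0499 and 0.0864 CPM in the 3 libraries, and this limit covers counting error only.

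Among the members searched, 8 held 12 miRNA hairpins of the RefSeq table on their own strand, by position. The 56 members without a known position were not searched, nor were those on the chromosome of the miR-124 hosts. MIR100HG, with 40.52, 40.09 and 37.80 TPM, carries the most, and its cluster joins miRNAs of distinct seeds. Products of its best-known hairpins are printed with the seed in capitals: miR-125b, studied in neuronal differentiation, let-7a, which marks differentiated cells, and miR-100. No seed is shared between them.
hsa-miR-125b-5p: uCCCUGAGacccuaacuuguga
hsa-let-7a-5p: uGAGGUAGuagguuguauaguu
hsa-miR-100-5p: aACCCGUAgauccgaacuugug

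The other hosts found were RMST (miR-1251 and miR-135a-2), MIR7-3HG, MIR4435-2HG, DIO3OS (miR-1247), MUC20-OT1 (miR-570), STAG3L5P-PVRIG2P-PILRB (miR-6840) and ENSG00000284707 (miR-5692c). DIO3OS, antisense to the imprinted deiodinase gene DIO3, had 32.07, 30.22 and 29.58 TPM. MUC20-OT1 had 30.01, 39.72 and 25.90 TPM, STAG3L5P-PVRIG2P-PILRB had 28.13, 34.23 and 40.53 TPM, and ENSG00000284707 had 23.66, 25.61 and 21.13 TPM. These levels are of the polyadenylated host RNA and say nothing of how much mature miRNA was made.

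By name, 94 members had no symbol, 56 had another symbol, 46 were antisense (-AS), 25 were LINC genes, 17 divergent (-DT), 5 miRNA hosts and 3 overlapping or intronic. Genes without a symbol were 38.2% of the members and 58.7% of the 3047 lncRNA genes with at least 1 TPM in each library, yet they held 51.9% of the members' TPM. Genes with another symbol were 22.8% of the members and 8.80% of the wider set. Antisense genes made up 18.7% of the members and 15.6% of the wider set, and divergent genes 6.91% of the members and 8.27% of the wider set. Of the 190 members with a known position, the largest numbers lay on chromosomes 7 (22 members), 19 (19 members) and 1 (17 members).

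Many members are tied to pseudogenes, which are copies of genes. For 38 of the 246 RefSeq or GENCODE 29 listed the gene itself as a pseudogene. For another 38, DGCR5, LINC00115 and MZF1-AS1 among them, GENCODE 29 placed at least 1 of the member's transcripts in a pseudogene. Of these 76, 75 had counts that were not whole, against 128 of the other 170, so some of their reads matched more than 1 gene. For 31 members the name gave a coding gene in the table, 22 coding genes in all. The member was higher in every library in 17 pairs, the coding gene in 13, and the order differed in 1. The rule set a minimum for the members alone, so these numbers were partly set by it. GTF2IP1 and GTF2IP4, copies of the transcription factor gene GTF2I on chromosome 7, had 443.93, 442.50 and 416.47 TPM and 215.18, 231.62 and 218.26 TPM. GTF2I itself had 172.32, 218.62 and 169.99 TPM, below both copies in every library. ENSG00000291003, whose transcripts GENCODE 29 placed in HERC2P2, had 160.43, 198.00 and 206.73 TPM, against 73.10, 71.55 and 37.69 TPM for the ubiquitin ligase gene HERC2.

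Other copies were below their coding gene. RPL23AP7 had 25.13, 29.03 and 26.21 TPM, against 686.43, 616.65 and 560.75 TPM for the ribosomal protein gene RPL23A. PI4KAP1 had 57.98, 54.77 and 52.76 TPM, against 133.81, 133.65 and 102.36 TPM for the lipid kinase gene PI4KA. The widest difference in the other direction was CRYBB2P1 with 36.98, 38.94 and 37.14 TPM, where the lens crystallin gene CRYBB2 had 0.24, 0.12 and 0.37 TPM. WASH7P, at 105.72, 105.43 and 89.65 TPM, and CASTOR3P, at 128.43, 125.28 and 116.44 TPM, were also in the top 20. How much of each level belongs to the copy and how much to its relatives was not tested, so these levels are uncertain.

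The coding genes named by antisense and divergent members covered a wide range. The 46 antisense members had partners with a median of 29 TPM, of which 28 averaged at least 20 TPM and 3 (CD27, C10orf95 and OIP5) under 1 TPM. The antisense member was higher in every library in 23 pairs, the partner in 14, and the order differed in 9. The 17 divergent members had partners with a median of 74.4 TPM, and the partner was higher in every library in 9 pairs, the member in 6, and the order differed in 2. The log2 ratio of member to partner, with 0.1 TPM added to each, had a median of 0.15 for antisense and -0.89 for divergent pairs. On counts in place of TPM, the median over all 63 pairs was -0.62 in place of 0.07, so no overall order of members and partners is claimed. The rule set a minimum for members and none for partners, so the pairs with the member higher were partly set by it.

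CD27-AS1 had 92.35, 91.02 and 95.67 TPM, against 0.23, 0.34 and 0.11 TPM for CD27, a receptor of lymphocytes. OIP5 had 0.21, 0.41 and 0.00 TPM, far below OIP5-AS1. LHX5-AS1 had 99.79, 94.33 and 89.08 TPM, against 27.63, 26.83 and 24.73 TPM for the forebrain regulator LHX5, and the log2 ratio of 1.83 varied by an SD of 0.02. At the other end, TPT1-AS1 had 44.62, 39.35 and 36.61 TPM, against 1755.14, 1722.00 and 1620.23 TPM for the growth-related gene TPT1. THY1-AS1 had 70.30, 58.66 and 59.38 TPM, and the neuronal surface protein gene THY1 had 255.77, 250.29 and 222.19 TPM. All 632 exon bases of THY1-AS1 lie inside THY1 exons.

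Partners of high level besides TPT1 and THY1 were TUBA1B at 1435 ± 137 TPM, PCBP1 at 300 ± 15.4 TPM, CTBP1 at 275 ± 17.7 TPM and GARS1 at 258 ± 31.8 TPM. Lower partners were MRPL20 at 194 ± 9.90 TPM, CNN3 at 147 ± 8.14 TPM and NDUFA6 at 142 ± 16.6 TPM (SD, n = 3 each). In that order, the genes given by their mean encode a tubulin, an RNA-binding protein, a transcriptional corepressor, a tRNA synthetase, a mitochondrial ribosomal protein, an actin-binding protein and a complex I subunit. Their members, such as CTBP1-DT with 22.36, 21.07 and 20.79 TPM and GARS1-DT with 27.96, 28.77 and 23.52 TPM, were lower in every library.

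Divergent genes are named for starting near a coding gene on the other strand. Of 16 divergent pairs with known starts, 14 had starts within 1000 bases of each other, with a median of 220 bases, and of 33 antisense pairs 15 did. Of 147 members found in GENCODE 29, 64 shared exon bases with a coding gene on the opposite strand, 20 on the same strand and 67 on neither. In the 63 opposite-strand pairs with a measured partner, the partner was higher in TPM in every library in 25 and the member in 27. Here too, the rule set a minimum for the members alone. Of the members, 9 lay wholly inside partner exons. There the partner was higher in TPM in every library in 6 pairs, the member in 0, and the order differed in the others. In those others, ENSG00000257386, ENSG00000263165 and DCHS1-AS1, the member had at most 2.70, 7.65 and 8.49% of the partner's counts in any library. In several of these pairs the fractional counts of member and partner added up to a whole count. In replicate 1, for example, THY1-AS1 had 695.94 counts and THY1 had 6975.06. The same was seen in pairs of partial overlap. In replicate 1, CD27-AS1 had 1664.53 counts and CD27 had 5.47, and EPB41L4A-AS1 had 2807.20 and EPB41L4A had 1017.80. The counting thus divided reads between genes on opposite strands in these pairs, and the true strand of those reads cannot be told from these values.

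**Figure D3:**
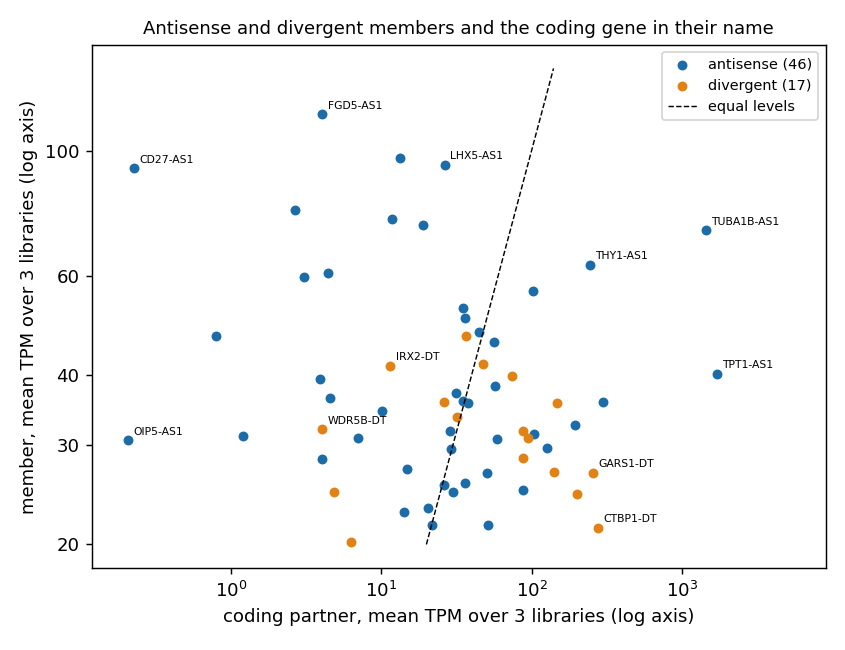
Mean TPM over 3 libraries of 46 antisense and 17 divergent members (y, log axis) against the coding gene in their name (x, log axis), with a dashed line at equal levels. Members run from 20.2 to 116 TPM, where the rule set only the lower end, while partners run from 0.207 TPM (OIP5) to 1699 TPM (TPT1).

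Promoters were searched because the rule did not use sequence. RefSeq windows of 300 bases, from 250 before to 50 after the start, were found for 90 members by symbol. A CG dinucleotide occurred at a median of 24.5 per window in members and 14 in all 27195 promoters, and 65.6% of the members had at least 20, against 41.3% of all. TATAAA, on either strand, was found in 3.33% of the members' windows and in 12% of all. The set of all promoters was not limited to genes expressed in these libraries. The part of the members' high level in these differences was not tested. The window of CHASERR is printed as an example of a CG-rich start (chr15:92882593-92882892, plus strand, GRCh38.p14), with its 36 CG dinucleotides in capitals.
CHASERR promoter: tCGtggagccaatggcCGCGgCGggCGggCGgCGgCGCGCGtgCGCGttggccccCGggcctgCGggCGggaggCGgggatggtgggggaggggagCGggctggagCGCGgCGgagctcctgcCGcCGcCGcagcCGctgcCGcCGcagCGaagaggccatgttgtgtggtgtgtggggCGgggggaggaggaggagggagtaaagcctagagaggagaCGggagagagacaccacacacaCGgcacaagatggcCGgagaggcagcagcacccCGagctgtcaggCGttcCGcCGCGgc

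The spread between libraries was moderate. The median CV of TPM was 11.5% in members, with quartiles of 6.84 and 18.1%, and 9.22% in the 7147 genes of any type that passed the same minimum. Without replicate 3 it was 6.63% in members and 5.91% in all genes. Of the members, 101 had a CV under 10% and 17 over 30%. Divergent members had a median CV of 6.49%. The smallest CVs belonged to ZNF582-DT, FAM66D, ZSCAN16-AS1, ZNF496-DT and ENSG00000270059, from 0.655 to 1.23%. ZNF496-DT, for instance, had 47.01, 47.13 and 46.18 TPM. By edgeR on the rounded estimated counts, the common biological coefficient of variation over 19089 genes was 0.188, and 0.120 without replicate 3.

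Replicate 3 was where most members stood apart, and this was so of all genes too. In it, 11 members were over 1.5 times the mean of the other libraries and 15 under 1/1.5 of it, or 4.47 and 6.10% of the 246. Among the 7147 genes of the same minimum, 1.69% were over and 2.55% under. This balance turned with the scaling. Of all genes, 121 were over and 182 under in TPM, against 151 and 68 with TMM, 161 and 61 with DESeq2 size factors, and 144 and 106 with TPM over nuclear genes only. The members were 15 over and 12 under with TMM and with DESeq2 size factors, and 12 and 12 over nuclear genes only. In replicate 2, 6 members were over and 5 under (2.44 and 2.03%), against 1.04 and 0.700% of all genes. In replicate 1, 2 members were over and 5 under (0.813 and 2.03%), against 0.126 and 1.06% of all genes. These counts depended on the libraries compared. Without replicate 2, 17 members were over and 14 under in replicate 1, with 163 and 146 of all genes. Without replicate 1, 15 members were over and 11 under in replicate 2, with 282 and 116 of all genes. Without replicate 3, 5 members were over and 1 under in replicate 2, with 90 and 10 of all genes. The share of members was above that of all genes in every library and direction, with no test of the difference. The median member had a log2 difference of -0.12 in replicate 3 from the mean of the others, and so did the median of all 7147 genes.

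CYTOR and MIR4435-2HG, RNAs studied mostly in tumours, stood highest in replicate 3. CYTOR had 27.28, 23.98 and 99.46 TPM, and MIR4435-2HG had 20.47, 21.01 and 69.96 TPM, so replicate 3 was 3.88 and 3.37 times the mean of the others. Both lie on chromosome 2. Their RefSeq promoter windows (chr2:87455177-87455476, plus strand, and chr2:111495112-111495411, minus strand) overlap in 241 aligned bases that are all identical, printed in capitals. Their counts were not whole, so some reads matched more than 1 gene. Whether these were shared between the pair was not tested, and the level of each alone is uncertain.
CYTOR promoter: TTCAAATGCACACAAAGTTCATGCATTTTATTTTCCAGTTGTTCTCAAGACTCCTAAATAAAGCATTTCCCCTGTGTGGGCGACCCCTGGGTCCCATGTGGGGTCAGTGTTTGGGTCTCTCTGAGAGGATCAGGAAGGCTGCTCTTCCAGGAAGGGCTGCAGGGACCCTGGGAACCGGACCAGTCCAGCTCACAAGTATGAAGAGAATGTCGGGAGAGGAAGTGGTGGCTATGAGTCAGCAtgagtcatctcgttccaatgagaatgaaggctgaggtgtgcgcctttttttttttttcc
MIR4435-2HG promoter: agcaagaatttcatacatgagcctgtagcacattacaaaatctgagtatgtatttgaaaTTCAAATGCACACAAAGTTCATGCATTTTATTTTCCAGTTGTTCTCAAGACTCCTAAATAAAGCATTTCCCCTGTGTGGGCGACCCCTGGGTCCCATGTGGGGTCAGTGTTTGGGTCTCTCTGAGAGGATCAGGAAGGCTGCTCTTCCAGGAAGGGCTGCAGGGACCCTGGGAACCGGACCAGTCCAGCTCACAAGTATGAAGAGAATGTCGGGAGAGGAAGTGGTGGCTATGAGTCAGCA

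TUBA1B-AS1 had 45.34, 47.28 and 124.31 TPM, while its partner TUBA1B, the tubulin gene, had 1559.49, 1456.47 and 1288.24 TPM, so the member was highest in the library where the partner was lowest. Of the exon bases of TUBA1B-AS1, 80.2% overlap TUBA1B. Its counts were not whole and were only 0.845, 0.878 and 2.15% of those of TUBA1B, so its level is uncertain. ENSG00000269993 had 75.65, 73.79 and 143.01 TPM on counts that were all whole. ENSG00000287763 had 22.93, 20.64 and 41.22 TPM. ENSG00000289901, RMST and IRX2-DT, at 35.70, 33.86 and 55.07 TPM, were also over 1.5 times. IRX2, the partner of IRX2-DT, had 9.02, 8.18 and 17.27 TPM, highest in the same library.

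On the low side of replicate 3, COPG2IT1 was followed by ENSG00000298285, which had 38.89, 123.36 and 29.25 TPM, so that here replicate 2 stood apart more than replicate 3. APPAT had 52.88, 70.72 and 22.45 TPM. LINC01963 had 75.26, 75.43 and 34.65 TPM, with replicates 1 and 2 almost equal. LINC00115 had 53.12, 48.60 and 25.42 TPM, and LINC00641 had 58.97, 74.34 and 34.75 TPM. With counts scaled by TMM, 11 of the 11 members over 1.5 times in TPM and 11 of the 15 under remained past it.

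**Figure D4:**
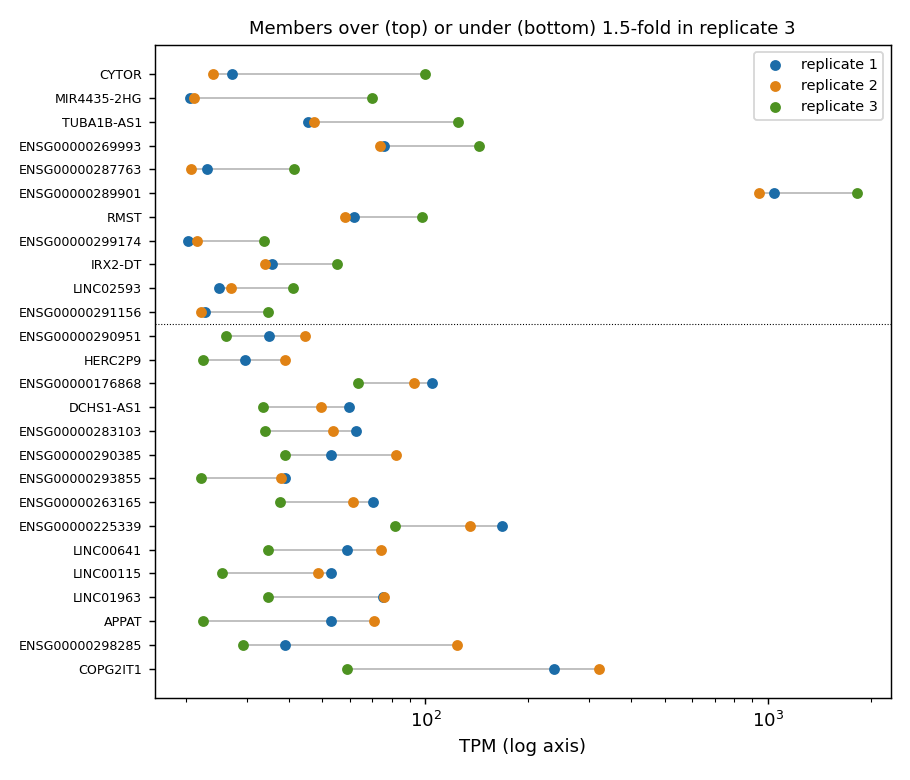
TPM (log axis) of the 26 members over 1.5 times (above the dotted line, 11 genes) or under 1/1.5 of (below it, 15 genes) the mean of the other libraries in replicate 3, with 1 point per library. CYTOR is at 99.46 TPM in replicate 3 and under 28 TPM in the others, and COPG2IT1 is at 59.10 TPM against over 230 TPM in the others.

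Cell type markers moved with replicate 3 as well. The summed TPM of 7 progenitor and dividing cell markers was 163, 165 and 356 in replicates 1, 2 and 3. Only VIM and NES of these had over 1 TPM in each library, and the cycling genes MKI67, TOP2A and CDK1 were near 0. The sum of 7 GABAergic markers, all detected, was 691, 733 and 349 TPM. The sum of 9 pan-neuronal markers was 7892, 7805 and 7028 TPM, and that of 5 glutamatergic markers, NEUROD6 at 0 among them, was 319, 339 and 391 TPM. The glutamatergic genes did not move together. The vesicular glutamate transporters SLC17A6, at 80.74, 105.12 and 160.08 TPM, and SLC17A7, at 11.71, 9.87 and 19.83 TPM, were highest in replicate 3. The cortical regulator TBR1 was lowest there, at 87.69, 88.72 and 71.07 TPM, and the kinase gene CAMK2B had 139.22, 134.86 and 140.14 TPM. Astrocyte (6 genes), oligodendrocyte (6 genes), microglia (6 genes) and mesenchymal (6 genes) markers summed to at most 6.14, 1.85, 1.46 and 12.7 TPM in any library. The mitochondrial share was 10.6% in replicate 3. The part of any of these in the members' values was not tested, and in RNA of whole cultures fewer cells of a type and less RNA per cell cannot be told apart.

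At the edge of the rule, the members of lowest level just inside were ZNF582-DT, ENSG00000269918, ENSG00000270059, ENSG00000291214 and ENSG00000300109, whose lowest library was at 20.09 to 20.20 TPM. Just outside were NUP50-DT, ENSG00000290835, ENSG00000272438, ENSG00000269604 and ZMPSTE24-DT, whose lowest library was at 19.98 to 19.63 TPM. NUP50-DT, for example, had 29.54, 29.29 and 19.98 TPM. A minimum of 10 TPM would have kept 506 genes and one of 40 TPM 79 genes.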

How the data were processed

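RNA of 3 untreated iGluta replicates was measured by strand-specific sequencing of polyadenylated RNA, as paired reads of 151 bp per the labels. The authors deposited estimated counts and TPM for 78932 genes. RSEM and GRCh38.p14 are named in the submitters' processing notes, without a version of RSEM. The sources used here do not give the aligner, annotation release or strand setting. RSEM divides reads that match several genes, so 203 of the 246 members had a count that was not whole, to a tolerance of 0.005. Members and gene lists were chosen with earlier results of these data known.

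From the deposited values, CPM, SD, CV and the ratio of each library to the mean of the others were computed, and no test between groups was possible with 1 group. The dispersion was fitted with edgeR 4.0.16 in R 4.3.3 (intercept only, TMM, filterByExpr, counts rounded), after the step was tested on simulated data, where gene-wise values were drawn strongly towards the common one. DESeq2 1.42.0 size factors were an alternative. Positions and sequences came from RefSeq tables on GRCh38.p14, which matched 148 members by symbol, and from GENCODE 29, which matched 147 by gene ID, and 56 members had no position in either. The miR-7 site was aligned with Biopython (1 per identical base, -1 per gap position, end gaps free).

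Genes were named by a rule: the 20 highest members, list genes that are members, the 10 largest and 5 smallest CVs, the 5 most above and 5 most below in replicate 3, the 5 on each side of the minimum, the 10 highest partners and the miRNA hosts. Copies of coding genes and other genes were named after their values were seen. Some of the genes so named are not reported here. Genes of X inactivation and Y-linked genes are not described.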

Additional observations from a re-analysis of the deposited data

How the results depend on the processing

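Of 51 alternatives, 37 kept the result within its limits. The members numbered 249 to 280 when a replicate was left out, 506 at a minimum of 10 TPM and 79 at 40 TPM. A minimum of 20 CPM in place of 20 TPM gave 184 genes, of which 146 were among the 246 members. It was counted as within the limits by the number of genes alone, although the genes themselves differed. Their share of TPM was 1.61 to 1.64% without a replicate, 1.73% over nuclear genes only, 1.15% of estimated counts and 1.46% without the 3 members inside ribosomal RNA genes, the last added after the data were seen. The median CV ran from 6.63 to 11% when a replicate was left out, lowest without replicate 3, and all genes of the same minimum gave 5.91% then. The common biological coefficient of variation ran from 0.120 to 0.218 likewise. Members past 1.5-fold numbered 6 to 31 in replicate 1, 6 to 26 in replicate 2 and 26 to 31 in replicate 3 when another replicate was left out, and 2, 4 and 8 in the same order past 2-fold. The median log2 ratio of antisense and divergent members to their partners was -0.62 on counts, against 0.07 on TPM, and the cause was not tested. No paired analysis was possible because the series has a single group. Levels of short members, of members tied to pseudogenes and of members that overlap exons on the opposite strand are uncertain because reads could be assigned in several ways. Genes near 20 TPM enter or leave the list with small changes of scale.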
